A study of Homo sapiens with 9 samples.

Results

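The genes described here are 10 members of the matrix metalloproteinase (MMP) system: the collagenases MMP1 and MMP13, the stromelysins MMP3 and MMP10, the gelatinases MMP2 and MMP9, the membrane-type enzyme MMP14 and the tissue inhibitors TIMP1, TIMP2 and TIMP3. They were picked by gene name from the 61552 genes listed in each file, and the set was chosen on earlier results of these same comparisons, so the members' differences are given as a description without p-values. The measurement was RNA sequencing of MDA-MB-231 cells, an established human triple-negative breast cancer cell line described as wild type in the labels. Cells were exposed for 24 h to 10 mM or 20 mM 2-deoxy-D-glucose (2-DG), a glucose analog that blocks glycolysis, or to no 2-DG. Per the study's methods, control cells received phosphate-buffered saline. Each of the 3 groups had 3 libraries. All libraries came from 1 line with no stromal or immune cells added. The sources did not say whether the 3 libraries of a group came from separate cultures, so the errors measure the spread between libraries, which may be technical.

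MMPs are secreted or membrane-bound zinc proteases that cleave collagens, laminins and other matrix proteins. They are made as inactive proenzymes, and cutting away the propeptide by plasmin, by furin-like enzymes or by other MMPs frees the active site. TIMPs bind the active site and block it, and TIMP2 also joins MMP14 and pro-MMP2 at the cell surface in the complex that activates pro-MMP2. In breast cancer, MMP1 is known for degrading fibrillar collagen, and MMP14 is known for collagen cleavage at the invading cell edge.

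The 7 MMP members share the zinc-binding site of the catalytic domain. Its coding bases are shown because they mark what makes these genes 1 family and how far the members differ at the same site. They were read 5′ to 3′ from the GENCODE 29 transcripts, with capitals for the codons of the 3 zinc-binding histidines and of the catalytic glutamate, and each transcript held the site at 1 place.
MMP1: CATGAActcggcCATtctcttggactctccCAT
MMP3: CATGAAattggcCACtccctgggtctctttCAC
MMP10: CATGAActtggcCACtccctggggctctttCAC
MMP13: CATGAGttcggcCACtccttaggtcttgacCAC
MMP2: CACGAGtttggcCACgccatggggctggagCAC
MMP9: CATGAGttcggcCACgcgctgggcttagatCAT
MMP14: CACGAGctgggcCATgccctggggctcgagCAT
Over these 33 bases MMP10 was the same as MMP1 at 25, MMP3 at 24, MMP14 at 23, MMP13 at 22, MMP9 at 21 and MMP2 at 18. In MMP1 the site spans codons 218 to 228 of 469.

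MMP3 and MMP10 were also identical over a run of 96 bases inside both coding sequences, from base 658 to base 753 of the MMP3 transcript and from base 435 to base 530 of the MMP10 transcript. The run is shown because a read that lies within it cannot be placed in either gene on sequence alone.
MMP3 and MMP10: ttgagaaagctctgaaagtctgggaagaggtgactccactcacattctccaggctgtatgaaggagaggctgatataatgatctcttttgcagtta
Windows of 50 bases shared between these genes made up 2.88% of the windows of MMP3 and 3.36% of those of MMP10. MMP13, MMP14, TIMP1 and TIMP3 shared no window of that length with another annotated gene.

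Levels are given as FPKM, fragments scaled by transcript length and by library size. The recovered library totals were 30974968 to 40843638 reads, and 1 read on a gene of 1 kb was worth 0.0245 to 0.0323 FPKM. The line's markers VIM (243 to 313 FPKM), AXL (89.9 to 126), CD44 (52.9 to 74.1) and EGFR (11.4 to 33.6) were present, with means in control, 10 mM and 20 mM cells of 14, 24.8 and 26 FPKM for EGFR, 117, 107 and 102 for AXL and 69.8, 58.3 and 56.6 for CD44. In the list of markers that the line should lack, ESR1 was at most 0.00829 FPKM and PGR at most 0.0204, so both hormone receptor genes were near 0. ERBB2 (5.53 to 9.11 FPKM) and EPCAM (2.61 to 4.51) were not near 0, and the mean of CDH1 was 0.365 FPKM in control cells, 0.0493 at 10 mM and 0.0686 at 20 mM. Summed macrophage markers went from 3.13 to 4.46 FPKM in control cells to 1.35 to 2.28 at 20 mM, with CD14 leading and PTPRC at most 0.0327. Summed fibroblast markers were 0.537 to 0.63 FPKM in control cells and 0.286 to 0.412 at 20 mM, summed endothelial markers were 1.47 to 1.95 and 0.854 to 1.05, and summed T cell markers never exceeded 0.104. The part of these markers in the results was not tested. In bulk RNA, more RNA per cell and more cells with that RNA cannot be told apart, so every value is a mean over the culture.

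The 10 genes fell into well-expressed and barely detected genes. TIMP1 was the most abundant in control cells, followed by MMP14, TIMP3, TIMP2 and MMP1, and the control libraries of neighbours in that order did not overlap. Among the 16570 genes that passed the filter on low values, these genes ranked 92, 136, 705, 873 and 3897 by control mean. MMP9, MMP10, MMP3, MMP13 and MMP2 had control means below 0.1 FPKM, with SDs as large as most of the gaps, and their order could not be read. At 20 mM the order was TIMP1, MMP14, MMP1, TIMP3 and TIMP2, at ranks 58, 190, 744, 786 and 1420. MMP1 and TIMP3 overlapped in range at that dose, while TIMP2 lay below both.

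MMP1 (ENSG00000196611), the interstitial collagenase, lies on the minus strand at chr11:102789920-102798160 (GRCh38). It stood at 10.1, 9.5 and 11.3 FPKM in the control libraries, at 36.1, 40.3 and 38.4 at 10 mM and at 53, 51.2 and 56.5 at 20 mM. The 3 groups did not overlap, and each higher dose lay above the one before. The means were 10.3 ± 0.929, 38.2 ± 2.1 and 53.6 ± 2.7 FPKM (SD, n = 3), a 3.7-fold and a 5.19-fold higher level than in control cells. The fitted log2 fold changes on the log2(FPKM + 1) scale were 1.79 and 2.27, with an SE of 0.0732. Between the doses it was 0.48 with the same SE. The counts behind these values were 953 to 1064 reads per control library and 4498 to 5574 per library at 20 mM. Exons of MMP1 share 150 bases with WTAPP1 on the opposite strand, and the sources did not state whether the counting used strand. WTAPP1 was listed at 0 in all control and 20 mM libraries, and had 6 reads over the 10 mM libraries.

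**Figure D1:**
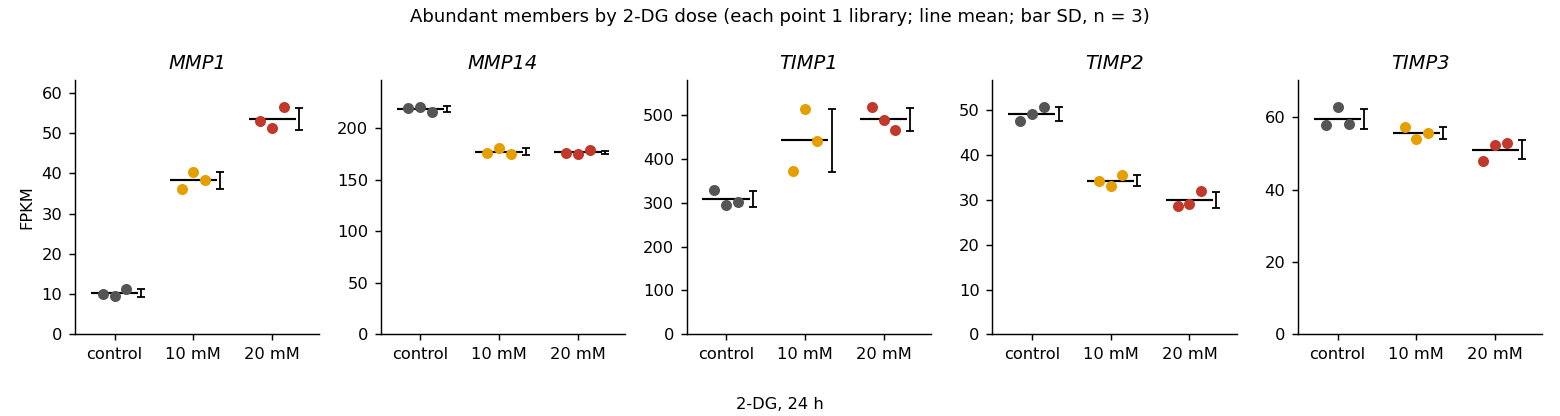
FPKM (vertical axes, linear, from 0, with a separate scale per gene) of the 5 well-expressed members by 2-DG dose (horizontal axes); points are single libraries, lines group means and bars SD (n = 3). MMP1 climbs from 9.5 to 11.3 FPKM in control cells to 51.2 to 56.5 at 20 mM, TIMP1 is higher and MMP14, TIMP2 and TIMP3 are lower than in control cells at 20 mM.

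MMP3 (ENSG00000149968) at chr11:102835801-102843803 and MMP10 (ENSG00000166670) at chr11:102770503-102780628, both on the minus strand, encode the stromelysins 1 and 2, which cleave proteoglycans, laminin and fibronectin and can activate other pro-MMPs. Both were close to the detection limit in every library. MMP3 was at 0.0911, 0 and 0.0786 FPKM in control cells, at 0.169, 0.264 and 0.173 at 10 mM and at 0.401, 0.203 and 0.359 at 20 mM. Its control libraries lay below all treated ones, and the doses overlapped. The control library without a read allows a level of up to 0.0442 FPKM, the value of 3 reads. MMP10 was at 0.08, 0.109 and 0.0166 FPKM in control cells, at 0.485, 0.111 and 0.198 at 10 mM and at 0.661, 0.429 and 0.516 at 20 mM. The lowest 10 mM library was next to the highest control library, whereas the 20 mM libraries lay well above the control libraries.

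The summed reads of MMP3 were 11, 42 and 60 in control, 10 mM and 20 mM cells, and those of MMP10 were 13, 50 and 96. Relative to the library totals, the log2 ratio at 20 mM against control was 2.48 for MMP3, with a 95% exact binomial interval of 1.54 to 3.56. For MMP10 it was 2.92, with an interval of 2.08 to 3.88. These intervals cover counting error only. On the log2(FPKM + 1) scale, which understates the change of low genes, the fitted values at 20 mM were 0.32 with an SE of 0.0641 for MMP3 and 0.52 with an SE of 0.0998 for MMP10. At 10 mM they were 0.19 and 0.23. Neither gene was called at 10 mM, but MMP3 was called there without replicate 1 or without replicate 2 of the 20 mM group (0.19 each time), and MMP10 was called without replicate 2 of the 10 mM group (0.32). Without replicate 1 of the 10 mM group, the MMP10 value at 10 mM was 0.11. Both genes passed the filter on low values only through treated libraries, so these calls add nothing to the values.

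MMP13 (ENSG00000137745), another collagenase, with a preference for type II collagen, lies in the same cluster at chr11:102942995-102955734. It was at 0.0398, 0 and 0.0103 FPKM in control cells, at 0.0904, 0 and 0.0205 at 10 mM and at 0, 0.0533 and 0.0641 at 20 mM. The groups overlapped, and 1 library of each group held no read. With 5, 11 and 12 reads per group, the log2 ratio at 20 mM against control was 1.30 with a 95% interval of -0.31 to 3.16, so no difference was detectable at this depth. MMP13 did not pass the filter on low values and was not fitted.

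The gelatinases, which degrade denatured collagen and type IV collagen of basement membranes, were barely detected. MMP9 (ENSG00000100985, chr20:46008908-46016561, plus strand) was at 0.0482, 0.0584 and 0.175 FPKM in control cells, at 0.134, 0.136 and 0.0872 at 10 mM and at 0.0415, 0.194 and 0.0777 at 20 mM. The 3 groups overlapped, and the widest values within a group differed more than the group means. The fitted log2 fold changes were 0.035 at 10 mM and 0.013 at 20 mM, with an SE of 0.0601, and the value at 20 mM turned to between -0.044 and -0.0095 without replicate 1 or 2 of the control group or replicate 2 of the 20 mM group. The counting interval of the log2 ratio at 20 mM ran from -0.59 to 1.14. MMP9 shares 430 exonic bases with SLC12A5-AS1 on the opposite strand, which had 1 read in all 9 libraries together.

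MMP2 (ENSG00000087245, chr16:55389700-55506691, plus strand) was listed at 0 in 7 libraries. The values above 0 were 0.0239 FPKM in 1 control library and 0.0214 in 1 library at 20 mM. It did not pass the filter on low values. In this line and at this depth the gelatinase genes were thus near or at 0 in each group.

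**Figure D2:**
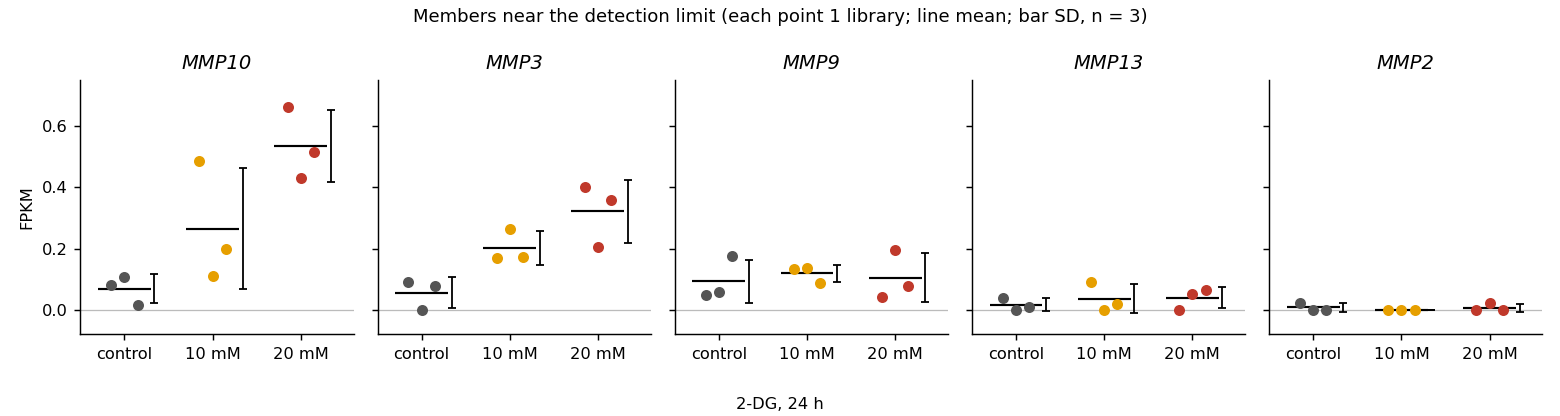
FPKM (vertical axis, linear, shared scale) of the 5 members near the detection limit by 2-DG dose (horizontal axes); points are single libraries, lines group means and bars SD (n = 3). MMP10 reaches 0.429 to 0.661 FPKM and MMP3 0.203 to 0.401 at 20 mM, while MMP9, MMP13 and MMP2 overlap between the groups.

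MMP14 (ENSG00000157227, chr14:22836557-22849027, plus strand), the membrane-anchored collagenase and activator of pro-MMP2, was by far the most abundant MMP member. It was at 220, 221 and 216 FPKM in control cells, at 176, 181 and 175 at 10 mM and at 176, 176 and 179 at 20 mM. All treated libraries lay below all control libraries, and the doses overlapped. The means were 219 ± 2.64, 177 ± 3.13 and 177 ± 1.65 FPKM (SD, n = 3). The fitted log2 fold change was -0.30 at each dose with an SE of 0.0508, and between the doses it was -0.0046, a value that turned to 0.013 under median-ratio scaling.

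TIMP1 (ENSG00000102265, chrX:47582313-47586789, plus strand), the secreted inhibitor of most soluble MMPs, was at 328, 295 and 302 FPKM in control cells. It was at 371, 513 and 440 FPKM at 10 mM and at 517, 488 and 465 at 20 mM. The treated libraries lay above the control libraries, and the 10 mM group was spread widely enough to overlap with the 20 mM group. The means were 308 ± 17.8, 442 ± 71.1 and 490 ± 26.4 FPKM (SD, n = 3). The fitted log2 fold changes were 0.51 and 0.67 with an SE of 0.112.

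TIMP2 (ENSG00000035862, chr17:78852977-78925387, minus strand), the inhibitor that also takes part in pro-MMP2 activation, moved the other way. It was at 47.7, 49.2 and 50.7 FPKM in control cells, at 34.2, 33.1 and 35.5 at 10 mM and at 28.7, 29.2 and 32 at 20 mM. The 3 groups did not overlap. The fitted log2 fold changes were -0.51 and -0.70 with an SE of 0.0583, and -0.19 between the doses. Exons of TIMP2 share 198 bases with CEP295NL on the same strand, which had 3, 15 and 5 reads in the 3 groups, and 367 bases with AC022966.1 on the opposite strand.

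TIMP3 (ENSG00000100234, chr22:32801701-32863043, plus strand), the inhibitor held in the extracellular matrix that also blocks ADAM17, changed least among the well-expressed members. It was at 57.8, 62.8 and 58.2 FPKM in control cells, at 57.2, 54 and 55.6 at 10 mM and at 48, 52.4 and 52.8 at 20 mM. The groups were separate, by a narrow gap between control and 10 mM. The fitted log2 fold changes were -0.10 and -0.22 with an SE of 0.059. Its call at 20 mM was lost without replicate 2 of the control group (-0.18) and without replicate 1 of the 20 mM group (-0.18).

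A gene was called where limma's adjusted p was under 0.05 over the 16570 genes tested, and 8 of the 10 members were tested. At 10 mM against control, MMP1 and TIMP1 were called higher, beside 12.1% of all genes tested, and MMP14 and TIMP2 were called lower, beside 17.5%. At 20 mM against control, MMP1, MMP3, MMP10 and TIMP1 were called higher, beside 15.4% of all genes tested, and MMP14, TIMP2 and TIMP3 were called lower, beside 21.6%. MMP9 was not called. MMP3 had 0 to 6 reads and MMP10 1 to 7 in each control library, so both passed the filter on low values only through treated libraries, where they were high, and their calls add nothing to the values above. By the DEG rule of the study's methods, an unadjusted p under 0.05 with an absolute log2 fold change over 1, MMP1 was the single member at either dose in the limma fit to log2(FPKM + 1), whereas the study applied the rule with another tool, DESeq2. With a pseudocount of 0.1 the rule held for 2 members at 10 mM and 3 at 20 mM, and under limma-voom on the recovered reads for 3 at each dose. The members added to MMP1 were MMP10 (1.03) at 10 mM with the pseudocount of 0.1, and MMP3 and MMP10 otherwise. Both are near the detection limit, and the share over all genes in those fits is not given. In the fit with a pseudocount of 1 the rule held for 0.579% of genes in the higher and 1.16% in the lower direction at 10 mM, and for 0.966% and 1.96% at 20 mM. Since the members were chosen on these contrasts, nothing is read from their counts. Both dose comparisons share the control libraries. The median log2 fold change over all genes tested was -0.011 at 10 mM and -0.021 at 20 mM.

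**Figure D3:**
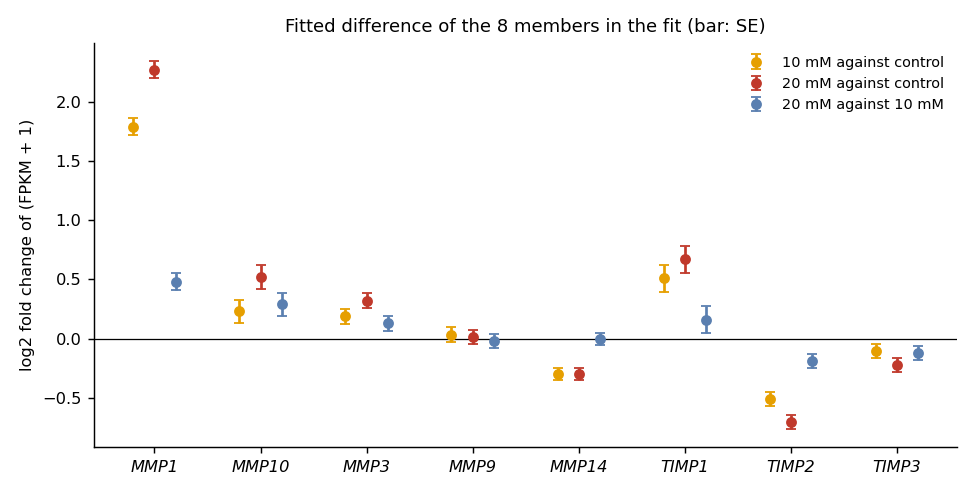
Fitted log2 fold change of FPKM + 1 (vertical axis) for the 8 members in the fit (horizontal axis) in the 3 comparisons; bars are SE. MMP1 stands at 1.79 and 2.27 against control, TIMP2 at -0.51 and -0.70, and MMP9 within its SE of 0.

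For 20 mM against 10 mM, limma called 0% of genes higher and 0% lower at an adjusted p under 0.05, and limma-voom on the recovered reads also called 0. At an unadjusted p under 0.05, limma found 1140 genes and limma-voom 1032. MMP1, MMP10 and TIMP2 were the 3 members among those. The step from 10 to 20 mM in MMP1, 38.2 to 53.6 FPKM with separate libraries, is therefore given as a value that did not pass the correction over all genes.

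Because FPKM is per length, the members can be added up within a library. The 7 MMP members summed to 229 ± 1.69 FPKM in control cells, 216 ± 4.86 at 10 mM and 231 ± 4.38 at 20 mM (SD, n = 3). The sums of the 20 mM libraries (228 to 236 FPKM) overlapped with those of the control libraries (227 to 230), while their makeup differed. MMP1 gave 4.12 to 4.99% of the MMP sum in the control libraries, 17 to 18.2% at 10 mM and 22.5 to 23.9% at 20 mM. MMP14 gave 95.4%, 82% and 76.4% on average.

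The 3 TIMP members summed to 417 ± 14.7, 531 ± 68.9 and 571 ± 22.3 FPKM. TIMP1 made up 73.9%, 82.9% and 85.8% of that sum on average, and the ratio of TIMP1 to TIMP2 went from 6.28 to 12.9 and 16.4. The ratio of the MMP sum to the TIMP sum was 0.53, 0.566 and 0.553 in the control libraries, 0.46, 0.369 and 0.403 at 10 mM and 0.388, 0.4 and 0.43 at 20 mM. Every treated library was below every control library. The direction depended on 1 gene of each sum, since the mean ratio went from 0.0254 to 0.0737 and 0.0958 without MMP14, and from 2.11 to 2.41 and 2.86 without TIMP1. The ratio of MMP1 to TIMP1 went from 0.0335 to 0.0876 and 0.11, and that of MMP14 to TIMP2 from 4.45 to 5.18 and 5.91. These are ratios of RNA levels, and neither protein nor enzyme activity was measured.

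**Figure D4:**
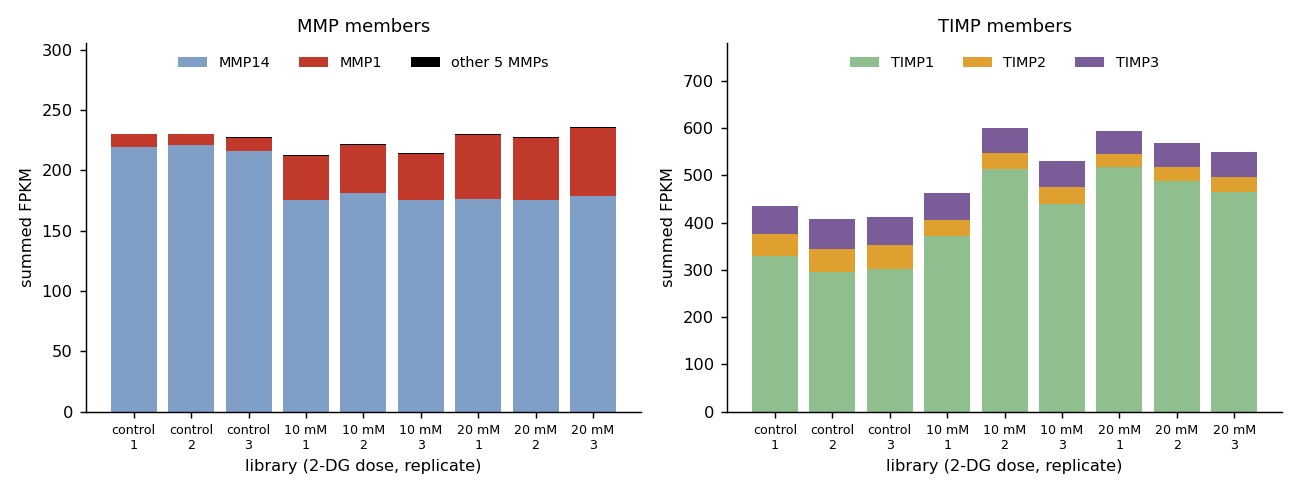
Summed FPKM (vertical axes, linear, from 0) of the 7 MMP members (left) and the 3 TIMP members (right) in each of the 9 libraries (horizontal axes), stacked by gene. The MMP sum stays between 213 and 236 FPKM while the MMP1 part grows to 22.5 to 23.9% at 20 mM, and the TIMP sum is 407 to 434 FPKM in control cells and 550 to 594 at 20 mM.

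MMP1, MMP3, MMP10 and MMP13 belong to a cluster of MMP genes on chromosome 11, in the order MMP7, MMP20, MMP27, MMP8, MMP10, MMP1, MMP3, MMP12 and MMP13. MMP12, MMP20 and MMP27 were at 0 in all libraries, and MMP7, the matrilysin gene, had means of 0.0558, 0.0323 and 0.0343 FPKM. Of the 10 genes listed as neighbours of the members, 5 were tested. At 20 mM 0 were called higher, beside 15.4% of all genes tested, and 2 lower, beside 21.6%. BIRC3, an inhibitor of apoptosis, fell from 9.92 ± 1.79 to 4.64 ± 0.393 FPKM (log2 fold change -0.94, adjusted p = 0.000297), and TMEM123 fell from 45.9 ± 5.83 to 30.8 ± 2.58 FPKM (-0.56, adjusted p = 0.00702). BIRC2, next to BIRC3, was at 17 FPKM in control cells and 16.1 at 20 mM (adjusted p = 0.635).

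The remaining MMP genes were mostly low. Of 16 listed, 8 were tested. At 20 mM 1 was called higher and 3 lower, beside 15.4% and 21.6% of all genes tested. The fitted log2 fold changes of the 8 had their median at -0.049. MMP15, another membrane-type enzyme, fell from 4.45 ± 0.592 to 2.27 ± 0.224 FPKM (-0.73, adjusted p = 0.000545). Among genes below 1 FPKM, named after their values were seen, MMP11 and MMP19 fell from 0.567 to 0.244 and from 0.642 to 0.263 FPKM, and MMP25 rose from 0.0688 to 0.223 FPKM. Among the 4 further inhibitors, 3 were tested. At 20 mM 2 were called higher and 1 lower, beside 15.4% and 21.6% of all genes tested. TIMP4, the remaining gene of the TIMP family, rose from 2.02 ± 0.536 to 3.91 ± 0.754 FPKM (0.71, adjusted p = 0.011). TFPI2, a secreted inhibitor of serine proteases, rose from 19.6 ± 2.21 to 25.4 ± 1.44 FPKM (0.36, adjusted p = 0.00711). RECK, a membrane-anchored MMP inhibitor, fell from 1.17 ± 0.117 to 0.653 ± 0.135 FPKM (-0.39, adjusted p = 0.00471).

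The related ADAM and ADAMTS metalloproteases, which shed cell surface proteins or cut proteoglycans, moved both ways. Of 28 listed, 19 were tested, with a median of -0.046 at 20 mM. There, 3 were called higher and 4 lower, beside 15.4% and 21.6% of all genes tested. ADAM8 fell from 104 ± 4.21 to 48.9 ± 4.05 FPKM (-1.07, adjusted p = 5.19e-06). ADAMTS9 fell from 1.96 to 0.999 FPKM (adjusted p = 0.00536) and ADAMTS15 from 9.15 to 6.81 FPKM (adjusted p = 0.0142). ADAMTS16 rose from 1.27 to 2.48 FPKM (adjusted p = 0.000928). ADAM17, the TNF-releasing sheddase, rose from 3.41 ± 0.37 to 5.47 ± 0.297 FPKM (0.56, adjusted p = 0.0244), a call that 5 of the 6 fits lacking 1 control or 20 mM library did not keep, with values from 0.49 to 0.58.

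Of 11 genes listed for the activation of pro-MMPs or plasminogen, among them the receptor gene PLAUR, 7 were tested. At 20 mM 1 was called higher and 1 lower, beside 15.4% and 21.6% of all genes tested. FURIN, which cuts the propeptide of MMP14, rose from 16.8 ± 1.7 to 24.8 ± 1.04 FPKM (0.53, adjusted p = 0.00117). PLAU, the urokinase that turns plasminogen into plasmin, fell from 102 ± 6.22 to 49.4 ± 3.76 FPKM (-1.03, adjusted p = 4.99e-06). Its receptor gene PLAUR was at 61.9 and 67.6 FPKM (adjusted p = 0.191).

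All 10 surface partners of the MMPs were tested, with a median of -0.24 at 20 mM. There, 2 were called higher and 3 lower, beside 15.4% and 21.6% of all genes tested. CAV1, the caveolin of membrane pits from which MMP14 is taken up, fell from 103 ± 3.3 to 62.4 ± 0.64 FPKM (-0.71, adjusted p = 2.2e-05). CD44, the hyaluronan receptor, fell from 69.8 to 56.6 FPKM (adjusted p = 0.00828), and LCN2, the lipocalin that binds MMP9, fell from 28.9 to 18.4 FPKM (adjusted p = 0.0102). CLDN1 rose from 2.6 to 4.68 FPKM (adjusted p = 0.00304). ITGA2, the collagen-binding integrin chain to which pro-MMP1 attaches, rose from 32.4 ± 7.77 to 56.5 ± 6.47 FPKM (0.80, adjusted p = 0.0183), and lost its call without replicate 1 of the control group (0.60) or replicate 3 of the 20 mM group (0.71).

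Of the 15 matrix substrates, 9 were tested, with a median of -0.039 at 20 mM. There, 4 were called higher and 2 lower, beside 15.4% and 21.6% of all genes tested. TNC, the matrix glycoprotein tenascin-C, rose from 4.22 ± 0.612 to 17.8 ± 0.838 FPKM (1.86, adjusted p = 5.95e-06). LAMB3, which encodes a laminin chain, rose from 144 ± 9.13 to 214 ± 2.53 FPKM (0.57, adjusted p = 0.000157). COL4A2 and COL4A1, which encode the type IV collagen chains of basement membranes, fell from 10.2 to 5.52 FPKM (adjusted p = 4.49e-05) and from 3.33 to 1.94 FPKM (adjusted p = 0.00226).

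AP-1 and ETS family transcription factors are known regulators of MMP promoters. All 18 listed, which also include RUNX2 of neither family, were tested, with a median of -0.011 at 20 mM. There, 4 were called higher and 4 lower, beside 15.4% and 21.6% of all genes tested. FOSL2 fell from 33.1 ± 3.36 to 18.4 ± 0.183 FPKM (-0.81, adjusted p = 0.000267), and ETV4 fell from 20.3 to 16.2 FPKM (adjusted p = 0.00797). ATF3 rose from 3.73 to 5.59 FPKM (adjusted p = 0.0146), JUN from 79.2 to 95.6 FPKM (adjusted p = 0.0216) and ELK3 from 19.5 to 24 FPKM (adjusted p = 0.0452), and BATF3 fell from 3.21 to 2.41 FPKM (adjusted p = 0.0358). The list's count of called genes varied between fits lacking 1 library. It was 3, 4 and 5 without replicate 1, 2 or 3 of the 20 mM group, and 6, 5 and 6 without those of the control group. Without those of the 10 mM group it was 9, 10 and 6. The shares over all genes in these fits are not given, so nothing is read from these counts. The calls of ATF3, JUN, ELK3 and BATF3 were each lost without at least 1 library, and that of BATF3 also under median-ratio scaling (-0.26).

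**Figure D5:**
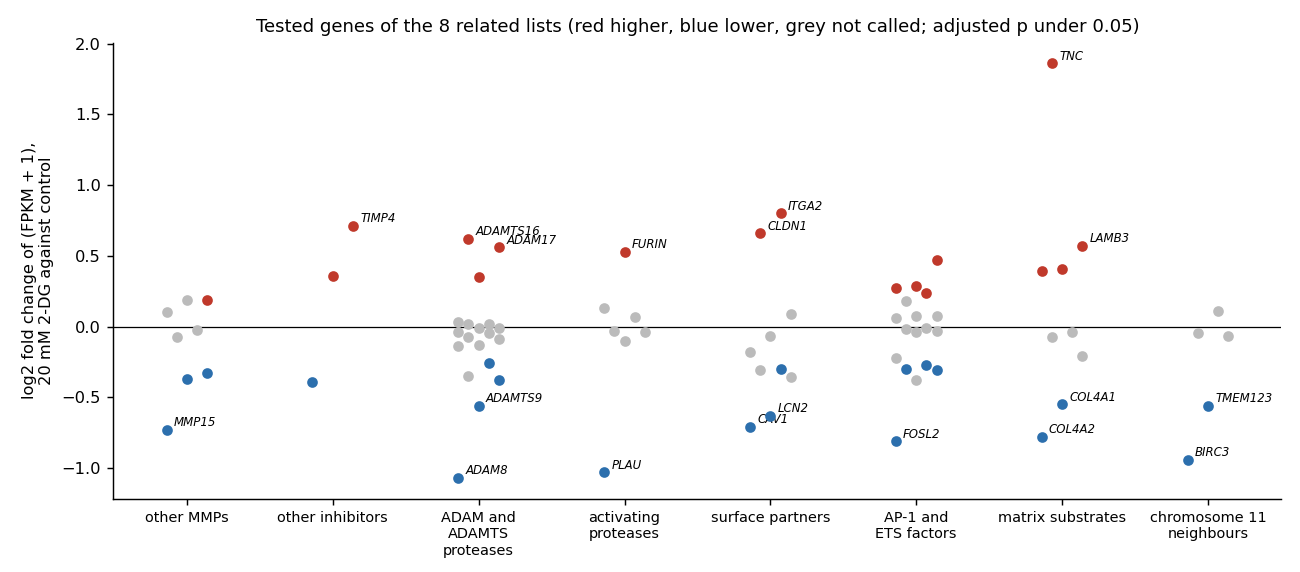
Fitted log2 fold change of FPKM + 1 at 20 mM 2-DG against control (vertical axis) for each tested gene of the 8 related lists (horizontal axis, with a small sideways offset); red genes were called higher, blue lower and grey not called at an adjusted p under 0.05. Most lists hold calls in both directions, with TNC at 1.86, ADAM8 at -1.07 and PLAU at -1.03 farthest from 0.

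The genes whose pattern over the 9 libraries was most like that of MMP1 were found by the root mean square difference of log2(FPKM + 1) less its control mean. PDIA4, an ER protein disulfide isomerase, was nearest at 0.135, with 171, 662 and 765 FPKM in the 3 groups. SLC3A2, the heavy chain of amino acid transporters, followed at 0.172 with 108, 367 and 451 FPKM, and HSPA5, the main ER chaperone, at 0.189 with 245, 1034 and 1282 FPKM. For TIMP2, the member with the lowest fitted value at 20 mM, the nearest genes were CPSF3 at 0.0453, CA12 at 0.047 and SNRPD3 at 0.0478. They stood at 13.9, 9.58 and 8.13 FPKM, at 3.46, 2.09 and 1.69 and at 6.73, 4.35 and 3.9 in the 3 groups.

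RefSeq promoter windows (GRCh38.p14), from 250 bases before to 50 bases after the start, were matched by symbol for MMP10, MMP14, TIMP1 and TIMP3, 4 of the 10 members. The AP-1 word TGAGTCA, or TGACTCA on the other strand, was in 0 of these 4 windows and in 4.95% of all 35116 windows. The related word TGAGTAA, or TTACTCA on the other strand, was added after the data were seen, and was in the window of TIMP1 alone and in 2.57% of all windows. It is shown in capitals within the 30 bases at chrX:47582324-47582353, plus strand, where it begins 101 bases before the RefSeq start. That start lies downstream of the TIMP1 gene start given above (chrX:47582313), so the bases shown fall inside the gene span given there.
TIMP1: tggtgggtggaTGAGTAAtgcatccaggaa
A match describes these letters only, and their absence from a window says nothing of the factor.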

How the data were processed

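RNA-seq libraries of MDA-MB-231 cells were made with a SMARTer mRNA kit per the labels and sequenced on a NovaSeq instrument per the study's methods. For each library the authors deposited FPKM values per gene; the submitters' processing notes name GRCh38 (hg38). The aligner, the counter and strand use are not given in the sources used here. Because FPKM divides by library size, genes that take many reads can shift the others.

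Whole reads and library totals were recovered from the steps between FPKM values, within a tolerance of 0.02 read and with the gene length free, for 32806 of the 32806 genes above 0, of which 16945 matched a GENCODE 29 length. The recovered reads made up 99.81 to 99.88% of the recovered totals. A gene was tested (16570 genes) if 3 or more libraries reached 10 reads, scaled to the median depth, and all libraries together 15. limma 3.58.1 (R 4.3.3) with trend was fitted to log2(FPKM + 1) over all 9 libraries, two-sided, with Benjamini-Hochberg adjustment. The scripts were tested on simulated data. Limma-voom on the recovered reads was an alternative, and it called 2140 genes higher and 3024 lower at 10 mM and 2649 and 3655 at 20 mM, where limma on FPKM called 2010 and 2903, and 2544 and 3582.

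The members and lists were chosen with earlier results of these data known. Named genes were the 10 members and, per list and direction, up to 3 genes with the largest fitted change at 20 mM among those called and at 1 FPKM or more in the higher group, with the 3 genes most like the highest and the lowest member. MMP7, MMP12, MMP20, MMP27, BIRC2, PLAUR, WTAPP1, SLC12A5-AS1 and CEP295NL were named for position, role or overlap after their values were seen. A gene that the rule names among the matrix substrates is counted but not reported here. No batch or date is given in the labels. The 20 mM files print more digits than those of the other groups, so processing apart and that dose cannot be told apart. Replicates correlated at 0.989 to 0.996 (Pearson, across genes). The spread was not equal between groups. Read differences between replicates had a mean variance over counting error of 14.8 to 22.6 in control cells. It was 27.8 to 59.1 at 10 mM and 4.76 to 6.83 at 20 mM, while the fit used 1 shared spread per gene. Sequences came from GENCODE 29 transcripts and RefSeq promoters.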

Additional observations from a re-analysis of the deposited data

How the results depend on the processing

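Of the member values under all alternatives, 366 kept their side of the threshold, 6 gained a call and 3 lost it. These include the values between the doses, where no member was called in any fit. The members were also chosen on the comparisons with control, so the tally does not measure how stable the calls are. The gained calls were all of MMP3 or MMP10 at 10 mM. Both genes passed the filter on low values only through treated libraries, so these calls add nothing to the values. No called value changed sign. Values near 0 that were not called did: MMP9 at 20 mM (0.013) was -0.016, -0.0095 and -0.044 without control replicate 1, control replicate 2 or 20 mM replicate 2, MMP9 between the doses (-0.021) was 0.02 without 20 mM replicate 1, and MMP14 between the doses (-0.0046) was 0.013 with median-ratio factors in either fit, and 0.0099 and 0.00054 without 10 mM replicate 2 or 20 mM replicate 2. Members meeting the DEG rule went from 1 to 2 at 10 mM and to 3 at 20 mM with a pseudocount of 0.1, to 3 at either dose with limma-voom (with or without median-ratio factors), to 3 at 20 mM with a 1.5-fold threshold, and from 0 to 1 between the doses with both voom fits. The shares over all genes under these settings are not given, so nothing is read from these counts. MMP3 was called at 10 mM with a pseudocount of 0.1 (0.99) and under limma-voom (2.41), and TIMP3 was not called at 20 mM under limma-voom with median-ratio factors (-0.17). With at least 10 reads required in every library, 2 members and not 4 were called higher at 20 mM, because MMP3 and MMP10 were no longer tested. The AP-1 and ETS count of 8 was 4 when all genes above 0 were tested. The ratio of summed MMP to summed TIMP FPKM was 0.0254, 0.0737 and 0.0958 without MMP14 and 2.11, 2.41 and 2.86 without TIMP1 in the 3 groups; the main values were 0.55, 0.411 and 0.406. Other causes were not tested.

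Leaving out 1 library at a time gave 2 to 3 members called higher and 2 lower at 10 mM, 4 higher and 2 to 3 lower at 20 mM, 1 DEG at each dose and 0 between the doses. The lists gave 3 to 5 calls (other MMPs), 3 (inhibitors), 5 to 8 (ADAM and ADAMTS), 2 (activating proteases), 4 to 7 (surface partners), 3 to 10 (AP-1 and ETS), 6 (matrix substrates) and 2 (neighbours). The shares over all genes in these fits are not given, so nothing is read from the counts.

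Same-numbered libraries of different groups deviated together with correlations of -0.406 to 0.293 over 9 pairs, so the numbers do not pair the libraries. Differently numbered libraries ranged from -0.23 to 0.521. The highest were control replicate 1 with 10 mM replicate 2 (0.521) and control replicate 2 with 10 mM replicate 1 (0.488). A block on the replicate numbers does not cover these. With the replicate block, 2 members were called higher and 2 lower at 10 mM, 4 and 3 at 20 mM and 0 between the doses, 6 AP-1 and ETS genes were called, and calls over all genes at 20 mM went from 2544 higher and 3582 lower to 2276 and 3270. Depth limits MMP3, MMP9, MMP10 and MMP13, where 1 to 36 reads stood behind a value above 0, and MMP2, which was listed at 0 in most libraries.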
